A study of Mus musculus with 24 samples.

Results

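The complement components and receptors measured in sorted mouse monocytes were *C1qa*, *C1qb* and *C1qc* (the chains of C1q), *C4b*, *C3*, *Cfb*, *Cfp*, *C3ar1* and *C5ar1*. They were taken by gene symbol, as 9 of the 53715 genes of the deposited expression table, and each had 1 row. Libraries came from Ly6Chi and Ly6Clo monocytes sorted from peripheral blood (PB) of wt and N2ΔMy mice on the C57BL/6 background, 8 to 10 weeks old. In N2ΔMy mice, Cre expressed from the *Lyz2* locus, which is active in myeloid cells, deletes a loxP-flanked *Notch2* gene, and the cells of all groups, wt included, were sorted on GFP expressed from the *Cx3cr1* locus as Lin- CD11b+ GFP+ CD115+ MHC-II- cells, with Ly6Chi cells also CD43-. The study asked how *Notch2* and the toll-like receptor TLR7 act on monocytes during inflammation, and gave mice 50 mg of Aldara cream per day, which holds 5% of the TLR7 agonist imiquimod (IMQ), or Sham cream (Vaseline in the labels, although the RNA methods call the controls untreated), until day 5. The 24 libraries formed 6 groups of 4: Ly6Chi cells of wt and of N2ΔMy mice after Sham treatment, the same after IMQ treatment, and Ly6Clo cells of both genotypes after IMQ treatment. No Ly6Clo group after Sham treatment was analysed here, so the effect of IMQ was measured in Ly6Chi cells only.

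Complement is a cascade of plasma proteins that marks microbes, dying cells and immune complexes. C1q, a bundle of A, B and C chains, binds antibody or other ligands and starts the classical route, in which C4b is deposited on the target and C3 is then cleaved, while factor B (*Cfb*) and properdin (*Cfp*) form and stabilise the C3-cleaving enzyme of the alternative route. The released fragments C3a and C5a act on the receptors encoded by *C3ar1* and *C5ar1*. Most plasma complement comes from the liver, but C1q and properdin are made chiefly by myeloid cells, and C1q is a well-known product of tissue macrophages and of some dendritic cells.

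Values are normalized read counts, already scaled between libraries, and their sum per library lay between 13273508 and 14651770. The depth inferred from them was 9524061 to 19763898 reads per library and was lower in replicates 3 and 4 (median 11946422) than in replicates 1 and 2 (median 15584837), which carry another series of library numbers. The 11230 genes that reached a value of 50 somewhere among the 24 libraries were tested on log2(value + 1), and a gene was called when its adjusted p was at most 0.05 and its log2 fold change at least 0.6 in either direction. All 9 genes passed the filter, but *C1qa* and *C1qc* did so only through the N2ΔMy Ly6Clo libraries and *Cfb* only through 3 libraries numbered replicate 3. *Notch2* itself was at 17766 ± 1799 (SD, n = 4) in wt and 10752 ± 949.7 in N2ΔMy Ly6Clo cells, and it was also lower in N2ΔMy Ly6Chi cells after IMQ (7616 against 13908) and after Sham treatment (9298 against 15211). These values are over the whole gene, so transcript that lacks only the deleted part is counted too. The Ly6Clo markers (*Nr4a1*, *Ace*, *Spn*, *Treml4*, *Itgax* and *Pou2f2*) were expressed in the Ly6Clo libraries of both genotypes, with sums of 99611 to 120695 in wt and 52427 to 71546 in N2ΔMy cells.

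**Figure D1:**
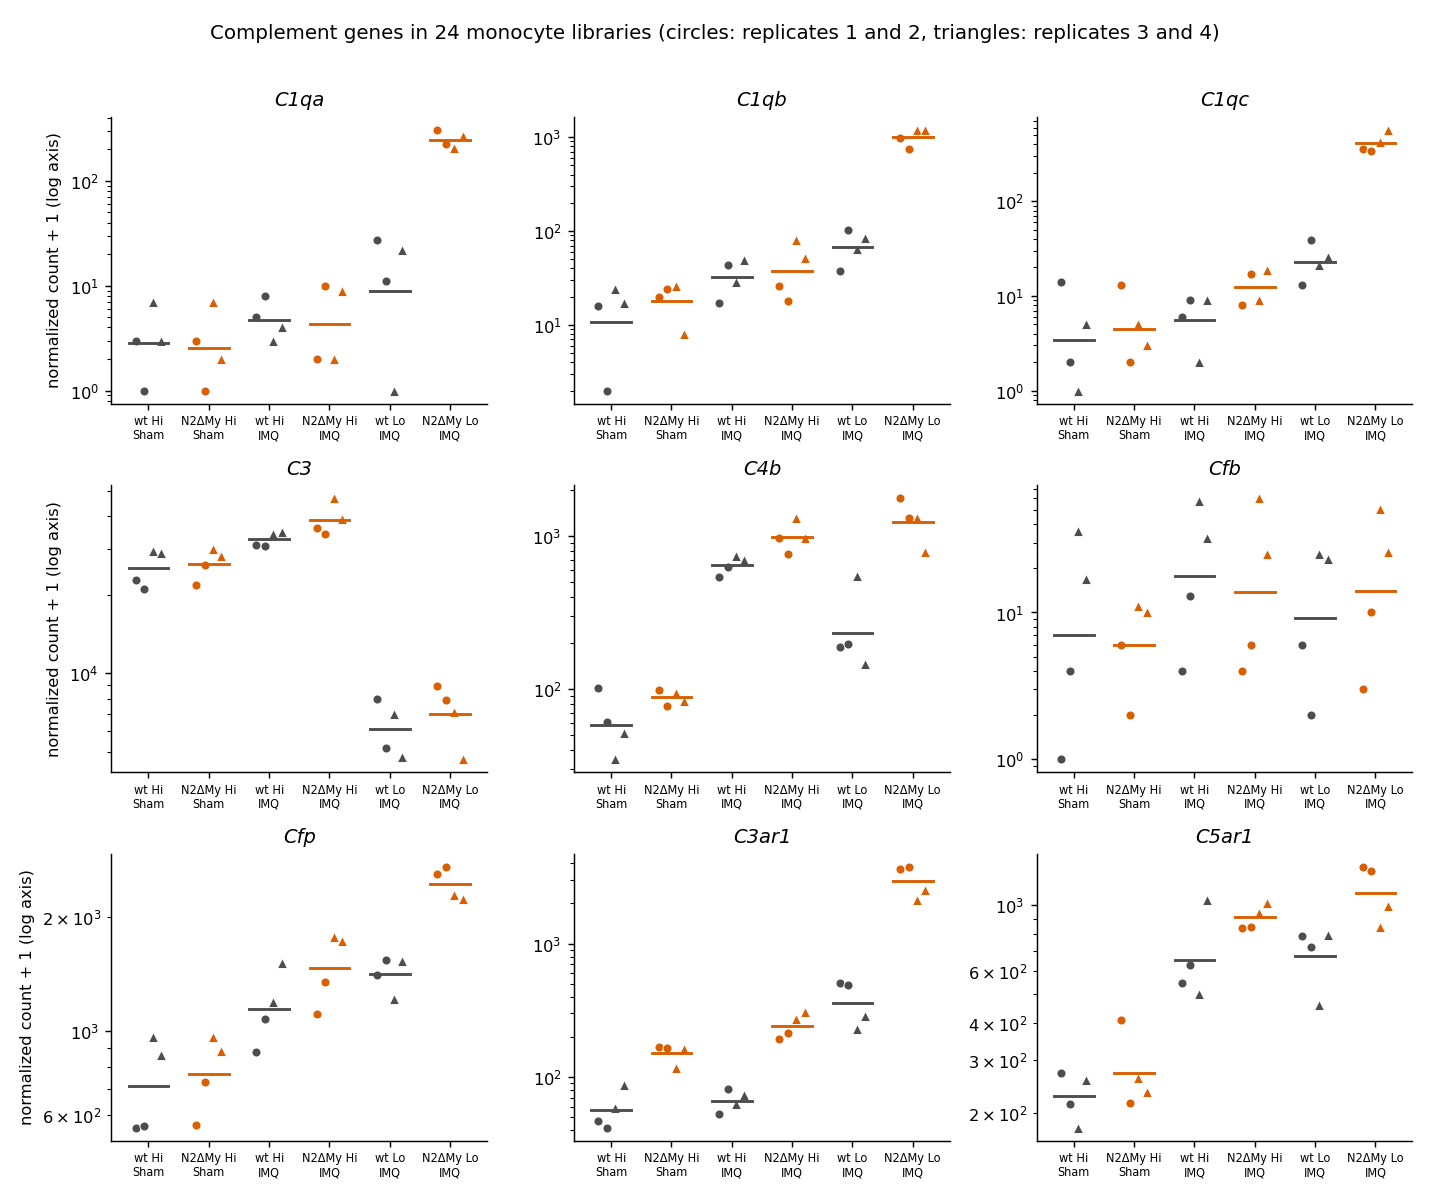
Normalized count plus 1 on a log axis for each of the 9 complement genes in the 24 libraries, by group (grey, wt; orange, N2ΔMy; Hi, Ly6Chi; Lo, Ly6Clo), with a line at the mean of the log values. The 3 C1q chains, C3ar1 and Cfp are highest in all 4 N2ΔMy Ly6Clo libraries, C3 is lowest in the 8 Ly6Clo libraries and C4b is lowest in the 8 Sham libraries.

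In Ly6Clo cells after IMQ, transcripts of the C1q chains, *C4b*, *Cfp* and *C3ar1* were higher in N2ΔMy than in wt mice. The C1q chains were between 14.3 and 17.8 times as high in N2ΔMy as in wt Ly6Clo cells, *C3ar1* was 8 times as high, *C4b* 4.78 times and *Cfp* 1.73 times. The values of *C3* and *Cfb* overlapped between the genotypes, and *C5ar1* lay between. In all, 6 of the 9 genes were called, all higher in N2ΔMy cells, where 4.78% of the 11230 genes tested were called and 3.12% were called as higher. *C1qa* and *C1qc*, which passed the filter through the N2ΔMy Ly6Clo libraries alone, had to be high there to be counted. Without the filter 4 of the 9 genes were called, against 215 of the 28578 genes then tested. The calls of *C1qa* (adjusted p = 0.129) and *C4b* (adjusted p = 0.09) were lost. The libraries of 7 of the 9 genes, *C5ar1* included, did not overlap between the genotypes, against 12.8% of all genes. In bulk libraries of sorted cells, a change in each cell and a change in the mix of cells that pass the gate cannot be told apart.

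*C1qb* had the highest values of the 3 chains. It was at 37, 102, 64 and 84 in wt Ly6Clo replicates 1 to 4 and at 971, 742, 1187 and 1193 in the N2ΔMy libraries, so that the genotypes were far apart (log2 fold change 3.88 ± 0.29 SE, adjusted p = 7.1e-05). *C1qc* was at 12, 38, 20 and 25 in wt and at 361, 338, 428 and 568 in N2ΔMy cells (4.18 ± 0.33, adjusted p = 7.7e-05). *C1qa*, at 26, 10, 0 and 21 in wt and 305, 225, 203 and 266 in N2ΔMy cells, had the largest fitted change with the widest error (4.78 ± 0.86, adjusted p = 0.00812). Every N2ΔMy library was above every wt library for each chain. The fit of *C1qa* rested in part on wt replicate 3, listed at 0, without which its log2 fold change was 3.73 (adjusted p = 0.000278), below *C1qb* (3.86) and *C1qc* (4.14). With 10 in place of the 1 added before the log, *C1qa* was at 3.56, and *C1qb* and *C1qc* at 3.71. The call of *C1qa* was lost without the filter on low values (adjusted p = 0.129), without replicate 2 (0.064) and within replicates 3 and 4 (0.0654).

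The C1q chains had low values in the other 20 libraries. There, *C1qa* reached at most 26 (median 2.5), *C1qb* 102 (median 25) and *C1qc* 38 (median 8). The sum of the 3 chains was 2 to 30 in wt and 10 to 35 in N2ΔMy Ly6Chi cells after Sham, 25 to 59 and 33 to 88 after IMQ, 75 to 150 in wt Ly6Clo cells and 1305 to 2027 in N2ΔMy Ly6Clo cells. The groups in between overlapped with their neighbours in this order, and only the N2ΔMy Ly6Clo libraries stood clear of the next group for all 3 chains.

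The protein needs its 3 chains in equal number, and their transcripts were compared per length, as normalized count per kb of exon. In N2ΔMy Ly6Clo cells *C1qb* was at 940.5 ± 196.7 per kb (SD, n = 4), *C1qa* at 240.1 ± 43.41 and *C1qc* at 219.4 ± 53.58. Of the 3 chains together, *C1qb* gave 63.5% to 72.4% in each of these libraries, *C1qa* 12.9% to 21.4% and *C1qc* 13.6% to 17.9%. In wt Ly6Clo libraries, at their low values, the shares ran from 52.1% to 85% for *C1qb*, from 0% to 38.3% for *C1qa* and from 9.53% to 16% for *C1qc*. On the per-length scale *C1qb* ranked 549 of the 11230 genes in N2ΔMy Ly6Clo cells and 6183 in wt Ly6Clo cells.

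**Figure D2:**
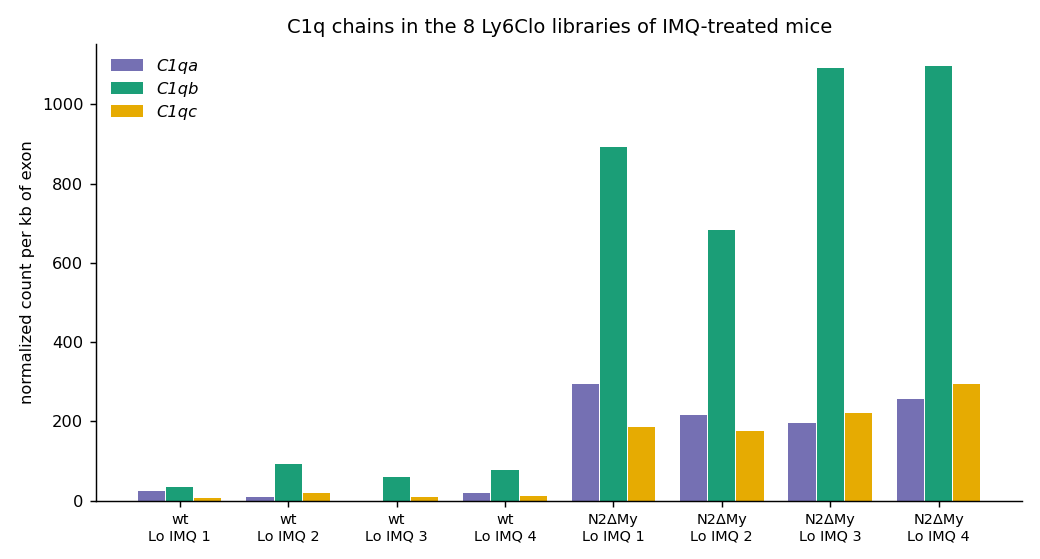
Normalized count per kb of exon of the 3 C1q chains in each Ly6Clo library of IMQ-treated mice, as bars from 0. C1qb leads in all 8 libraries, and each chain is higher in all 4 N2ΔMy libraries than in any wt library.

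The 3 genes lie in 1 cluster on chromosome 4 (GRCm38, chr4:136880129-136898803, 18675 bases), with *C1qb* at chr4:136880129-136886187, *C1qc* at chr4:136889804-136893065 and *C1qa* at chr4:136895917-136898803, all on the minus strand. No other annotated gene lies among them, and the genes on either side, *Ephb2* and *Epha8*, had group means of at most 3.75 and were not tested. Upstream sequence is shown for *C1qb*, *C1qc* and *C3ar1*, the genes with the largest differences that were found in the promoter table, as RefSeq bases of GRCm38.p6 that end before the annotated start of the gene. Capitals mark matches on either strand to the 4 motifs searched, TGCTGA (the recognition half-site of MAF factors), GAGGAA (the PU.1 core), the interferon-stimulated response element and TGAGTCA (AP-1).
*C1qb*, chr4:136886201-136886450, minus strand: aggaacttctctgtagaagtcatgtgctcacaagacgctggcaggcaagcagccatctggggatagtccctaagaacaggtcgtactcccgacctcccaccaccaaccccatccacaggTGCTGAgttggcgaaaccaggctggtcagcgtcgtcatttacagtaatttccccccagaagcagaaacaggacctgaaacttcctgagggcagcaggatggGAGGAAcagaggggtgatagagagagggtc
*C1qc*, chr4:136893066-136893164, minus strand: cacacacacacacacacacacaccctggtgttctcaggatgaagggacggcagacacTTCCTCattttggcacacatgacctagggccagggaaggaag
*C3ar1*, chr6:122856162-122856407, minus strand: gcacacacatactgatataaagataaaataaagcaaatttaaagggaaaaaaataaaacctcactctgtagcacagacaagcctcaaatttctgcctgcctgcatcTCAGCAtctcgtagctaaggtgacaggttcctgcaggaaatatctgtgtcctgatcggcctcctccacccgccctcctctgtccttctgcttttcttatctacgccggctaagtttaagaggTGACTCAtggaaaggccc

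These stretches come from windows of 300 bases, 250 before and 50 after the RefSeq start, which were held for 6 of the 9 genes (*C1qb*, *C1qc*, *C3ar1*, *C5ar1*, *C3* and *Cfp*). The MAF half-site was in the windows of *C1qb*, 131 bases before the start, *C3ar1*, *C3* and *C5ar1*, and in 19.5% of the 32851 windows of the table. The PU.1 core was in those of *C1qb*, *C1qc* and *Cfp*, and in 28.3% of all windows. *C3ar1* alone of the 6 held the AP-1 motif, 22 bases before the start (5.2% of all windows). The interferon-stimulated response element was in none of the 6 windows (3.44% of all windows). Matches to different motifs did not overlap in the stretches shown.

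*C4b*, which encodes the complement C4 protein of the classical and lectin routes, responded to IMQ more than any other of the 9 genes. It was at 101, 60, 34 and 51 in wt Ly6Chi cells after Sham treatment and 534, 628, 734 and 694 after IMQ, 10.5 times as high (log2 fold change 3.47 ± 0.28, adjusted p = 6.2e-05). In N2ΔMy Ly6Chi cells it went from 98, 77, 93 and 83 to 962, 764, 1302 and 970, 11.4 times as high (3.47 ± 0.17, adjusted p = 8.1e-06). The genotype-by-treatment term of *C4b* was 0.00 ± 0.35. After IMQ, *C4b* was higher in every N2ΔMy than in every wt Ly6Chi library, by 0.61 ± 0.16, with an adjusted p of 0.518, and of 0.0191 when blocked by replicate number.

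In Ly6Clo cells after IMQ, *C4b* was at 186, 196, 550 and 144 in wt and 1752, 1315, 1299 and 780 in N2ΔMy mice (log2 fold change 2.41 ± 0.38, adjusted p = 0.004). The call was lost without the filter on low values (adjusted p = 0.09), without replicate 1 (0.0565) and within replicates 3 and 4 (0.154). *C4b* was lower in Ly6Clo than in Ly6Chi cells of wt mice (-1.47 ± 0.34, adjusted p = 0.00631) but not in N2ΔMy mice (0.33 ± 0.23, adjusted p = 0.327). The wt call was lost without the filter (adjusted p = 0.0759) and within replicates 3 and 4 (0.12). In N2ΔMy mice the difference was 0.82 within replicates 1 and 2 and -0.16 within replicates 3 and 4. The genotype-by-subset term, the difference between the subset effects of the genotypes, was 1.80 ± 0.45 with an adjusted p of 0.0792, and 0.00766 when blocked. One wt library, Ly6Clo replicate 3, stood apart at 550 and overlapped with the Ly6Chi range. That library also had the highest sum of 4 Ly6Chi markers (*Ly6c2*, *Ccr2*, *Vcan* and *F13a1*) among wt Ly6Clo cells, 1686 against 476 to 796. Without it, *C4b* was 2.82 higher in N2ΔMy than in wt Ly6Clo cells on the log2 scale (adjusted p = 0.000277), 1.88 lower in wt Ly6Clo than in wt Ly6Chi cells, and the term was called (2.21, adjusted p = 0.000996).

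*C3*, the central component of all routes, had by far the highest level of the 9 genes in Ly6Chi cells. Per kb of exon it was at 4967 ± 816.3 in wt and 5140 ± 689.6 in N2ΔMy Ly6Chi cells after Sham and at 6371 ± 405.2 and 7587 ± 1089 after IMQ, ranks 45 to 64 of the 11230 genes. In Ly6Clo cells it was at 1211 ± 294.5 in wt and 1392 ± 352.4 in N2ΔMy mice, where *Cfp* was level with it at 1413 ± 132.4 per kb. As normalized counts, wt Ly6Chi libraries after IMQ held 31113, 30839, 34281 and 34837, and wt Ly6Clo libraries 8000, 5172, 6954 and 4779, a drop of 5.26 times (log2 fold change -2.43 ± 0.16, adjusted p = 1.5e-06). The N2ΔMy libraries went from 36027, 34101, 46827 and 39115 to 8946, 7909, 7091 and 4690 (-2.48 ± 0.19, adjusted p = 5e-06). *C3* ran opposite to *C3ar1* between the subsets in both genotypes, and opposite to all 3 C1q chains in N2ΔMy mice. No difference of *C3* between the genotypes was detectable in Ly6Clo cells (0.19 ± 0.21, adjusted p = 0.697) or in Ly6Chi cells after IMQ (0.24 ± 0.12, adjusted p = 0.843) or Sham treatment (0.05 ± 0.14, adjusted p = 0.984). With IMQ it was 0.37 ± 0.13 higher in wt and 0.56 ± 0.14 higher in N2ΔMy Ly6Chi cells, both under the fold threshold (adjusted p = 0.0745 and 0.0229).

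*Cfp*, the X-linked gene of properdin, was well expressed in every library, at 554 to 2705. It was at 1400, 1540, 1214 and 1526 in wt and 2588, 2705, 2286 and 2232 in N2ΔMy Ly6Clo cells (log2 fold change 0.79 ± 0.11, adjusted p = 0.00188), a small difference with little spread. In N2ΔMy mice it was also higher in Ly6Clo than in Ly6Chi cells after IMQ (0.74 ± 0.15, adjusted p = 0.00427), whereas in wt the subsets overlapped (0.31 ± 0.15, adjusted p = 0.145). The difference between these, 0.44 ± 0.23, was not called (adjusted p = 0.708). IMQ raised *Cfp* in N2ΔMy Ly6Chi cells from a mean of 783 to 1486 (0.93 ± 0.19, adjusted p = 0.0105). In wt Ly6Chi cells it went from 733.8 to 1162 (0.68 ± 0.21, adjusted p = 0.0517), a gene called there in the blocked fit (0.0006). The IMQ call in N2ΔMy cells was lost without replicate 2 (adjusted p = 0.0663) or 4 (0.0521), and the subset difference fell under the fold threshold without replicate 1 (0.58) and within replicates 3 and 4 (0.37, against 1.12 within replicates 1 and 2).

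*Cfb* was at the edge of detection. Its values ran from 0 to 12 (median 3) in the 12 libraries of replicates 1 and 2 and from 9 to 59 (median 24.5) in the 12 libraries of replicates 3 and 4, whatever the group. No comparison called it, and its log2 fold changes between 2 groups carried errors of 0.90 to 1.13. Annotated genes that overlap *Cfb* or *C3* on the same strand, 3 in number, had values of at most 1.

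*C3ar1*, the receptor for the C3a fragment, was the gene whose genotype difference reached furthest. In Ly6Clo cells it was at 503, 487, 227 and 287 in wt and 3628, 3742, 2132 and 2535 in N2ΔMy replicates 1 to 4 (log2 fold change 3.04 ± 0.27, adjusted p = 0.00018). In Ly6Chi cells after IMQ it was at 52, 80, 62 and 73 in wt and 192, 213, 273 and 309 in N2ΔMy cells. That made it 3.7 times as high (1.86 ± 0.21, adjusted p = 0.0241) and the only one of the 9 genes called there, in a comparison in which 0.0267% of the genes, 3 in number, were called. Together with *C4b* it made 2 of the 9 genes whose libraries did not overlap there, against 3.84% of all genes. In Sham mice it was at 46, 41, 58 and 86 in wt and 168, 163, 117 and 161 in N2ΔMy Ly6Chi cells, again without overlap, as for 3.15% of all genes, and 2.64 times as high, but it was not called across all genes (1.43 ± 0.26, adjusted p = 0.479). The call after IMQ was lost when any 1 replicate was left out (adjusted p from 0.0875 to 0.636). In each of the 3 comparisons the libraries of the genotypes did not overlap, which fixes the order of any pairs.

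The genotype difference of *C3ar1* was not shown to differ between subsets or treatments. Its genotype-by-subset term was 1.17 ± 0.36 (adjusted p = 0.187, and 0.0598 when blocked by replicate number), and its genotype-by-treatment term was 0.44 ± 0.33 (adjusted p = 1). *C3ar1* was higher in Ly6Clo than in Ly6Chi cells of both genotypes after IMQ, by 2.41 ± 0.27 on the log2 scale in wt (adjusted p = 5.6e-05) and by 3.59 ± 0.21 in N2ΔMy mice (adjusted p = 9.3e-07). No effect of IMQ was detectable in wt Ly6Chi cells (0.25 ± 0.28, adjusted p = 0.625), and in N2ΔMy cells it rose by 0.68 ± 0.19 (adjusted p = 0.0438), a call that was lost when any 1 replicate was left out (adjusted p from 0.0537 to 0.203), with a difference of 0.29 within replicates 1 and 2 and 1.08 within replicates 3 and 4.

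*C5ar1*, the receptor for C5a, followed another order. It rose with IMQ in Ly6Chi cells of both genotypes, from 270, 212, 177 and 257 to 545, 626, 502 and 1041 in wt (log2 fold change 1.52 ± 0.23, adjusted p = 0.00129) and from 409, 215, 260 and 233 to 838, 843, 941 and 1017 in N2ΔMy mice (1.74 ± 0.19, adjusted p = 0.00031). All treated libraries were above all Sham libraries of their genotype. Ly6Clo and Ly6Chi cells did not differ detectably after IMQ in wt (0.05 ± 0.24) or in N2ΔMy mice (0.28 ± 0.15). Within replicates 1 and 2 the difference was 0.37 in wt and 0.65 in N2ΔMy mice, and within replicates 3 and 4 -0.26 and -0.10. In Ly6Clo cells *C5ar1* was at 787, 720, 460 and 794 in wt and 1342, 1297, 843 and 991 in N2ΔMy mice, which did not overlap. Its log2 fold change of 0.70 ± 0.20 was not called (adjusted p = 0.0731), whereas the fit blocked by replicate number gave an adjusted p of 0.00094. Its adjusted p was 0.0347 without replicate 3 and up to 0.257 without another replicate. Without wt Ly6Clo replicate 3 alone, which held the lowest value, its log2 fold change was 0.52 (adjusted p = 0.115), under the fold threshold.

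**Figure D3:**
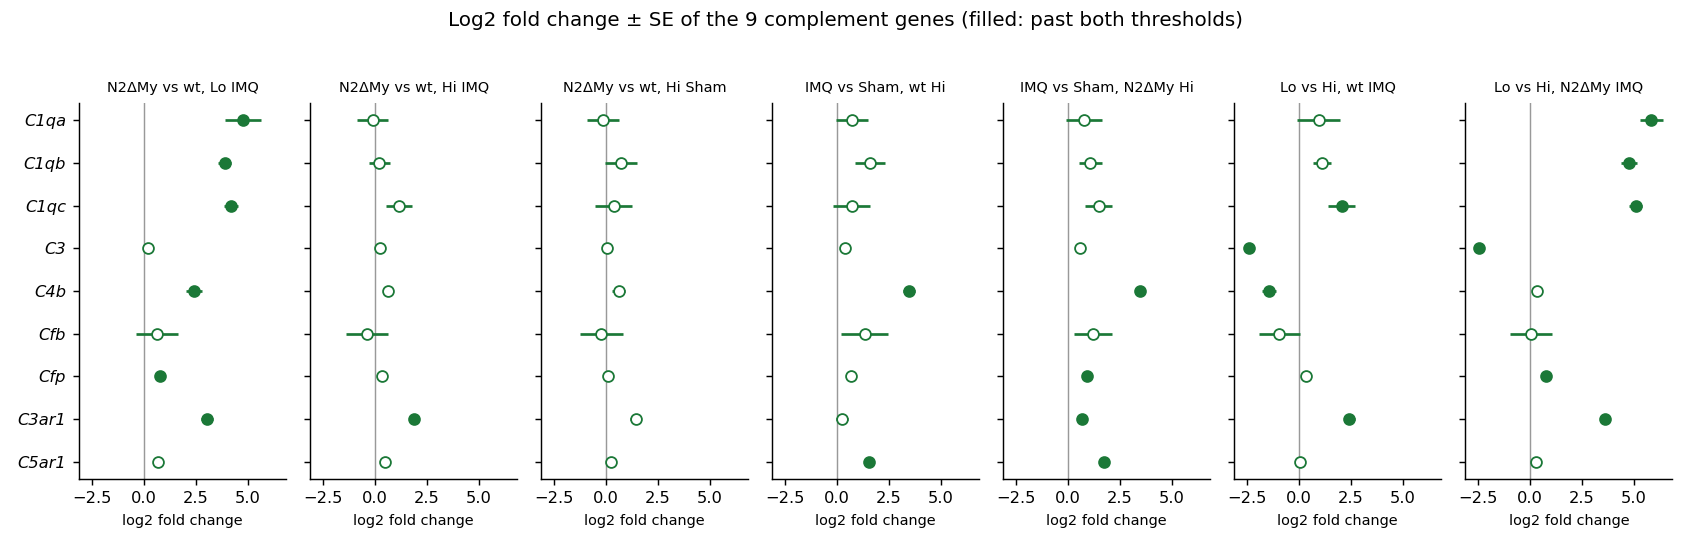
Log2 fold change (points) with its standard error (bars) for the 9 complement genes in the 7 comparisons of 2 groups of 4 libraries; filled points passed both the adjusted p and the fold threshold. C1q, C4b, Cfp and C3ar1 are filled in the Ly6Clo genotype comparison, C4b and C5ar1 in both IMQ comparisons, and C3 lies near -2.43 and -2.48 in the subset comparisons.

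Counted over the 9 genes, IMQ against Sham called 2 in wt Ly6Chi cells (*C4b* and *C5ar1*), where 9.49% of all genes tested were called and 4.43% as higher. In N2ΔMy Ly6Chi cells it called 4 (*C4b*, *C5ar1*, *Cfp* and *C3ar1*), where 8.7% of all genes were called and 4.15% as higher. These counts do not show a different response of the genotypes, as no gene at all was called for the genotype-by-treatment term with limma (177 genes at an unadjusted p under 0.05) or in its blocked fit (380 genes). The IMQ, genotype and subset comparisons share groups of libraries and are not independent of each other. The median log2 fold change of the 9 genes was 0.73 in wt and 1.07 in N2ΔMy mice, against 0.013 and 0.005 over all genes. Markers of other cells moved with IMQ in Ly6Chi cells. Of 8 neutrophil markers 4 were tested and 3 (*S100a8*, *S100a9* and *Mmp8*) were called as higher in both genotypes, and the sum of the list over both genotypes was 708 to 1386 after Sham and 3101 to 8578 after IMQ, with *Ly6g* at most 1 in every library. Ly6G is among the Lin antigens against which the study gated. Of the 5 dendritic cell markers tested, 3 (*Flt3*, *Clec9a* and *Cd209a*) were called as lower in both genotypes, with list sums of 823 to 1687 after Sham and 270 to 531 after IMQ. Of the 5 macrophage markers tested, *Mrc1* and *Fcgr1* were called as lower in both genotypes (from means of 608 to 60.5 and 2656 to 1202 in wt), and *Adgre1* and *Mertk* as higher in N2ΔMy cells. The platelet marker *Ppbp* was called as higher in N2ΔMy cells, the Ly6Clo marker *Spn* in wt, and the Ly6Chi marker *Vcan* in both genotypes. Their part in the IMQ differences of *C4b*, *C5ar1*, *Cfp* and *C3ar1* was not tested. In Sham mice none of the 9 genes was called between the genotypes with limma, with or without the block, 1 of the 9 (*C3ar1*) having an unadjusted p under 0.05, and 0.0178% of all genes were called.

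Ly6Clo against Ly6Chi cells after IMQ called 4 of the 9 genes in wt (*C1qc* and *C3ar1* higher, *C3* and *C4b* lower), where 24.6% of all genes were called, 11.9% as higher and 12.7% as lower. *C1qc* rose there from 5, 8, 1 and 8 to 12, 38, 20 and 25 (log2 fold change 2.04 ± 0.64, adjusted p = 0.0286), and the call was lost when any 1 replicate was left out (adjusted p from 0.0519 to 0.0981). *C1qb* was higher in all 4 pairs (1.09 ± 0.42, adjusted p = 0.0639, and 0.00416 when blocked). In N2ΔMy mice 6 were called (the C1q chains, *Cfp* and *C3ar1* higher, *C3* lower), where 17.4% of all genes were called, 9.01% as higher and 8.38% as lower. There the log2 fold changes of *C1qa*, *C1qb* and *C1qc* were 5.83 ± 0.56, 4.75 ± 0.40 and 5.07 ± 0.33. With 10 in place of the 1 added before the log they were 4.17, 4.41 and 4.29, and *C1qa* and *C1qc* passed the filter only through these high N2ΔMy libraries.

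Whether the genotype difference itself differed between Ly6Clo and Ly6Chi cells after IMQ was tested by the interaction over 16 libraries. It was called for *C1qb* (3.66 ± 0.62, adjusted p = 0.00511) and *C1qc* (3.04 ± 0.68, adjusted p = 0.0395), where 1.03% of all genes were called and 0.971% as higher. For *C1qa* it was 4.89 ± 1.20 with an adjusted p of 0.0706, and 0.00843 in the blocked fit. Without wt Ly6Clo replicate 3 the *C1qa* term was 3.83 (adjusted p = 0.0266) and that of *C1qc* 2.99 (adjusted p = 0.0509). In Ly6Chi cells after IMQ the chains showed no detectable genotype difference at these low values (*C1qb* 0.22 ± 0.51, *C1qa* -0.10 ± 0.75 and *C1qc* 1.15 ± 0.61, adjusted p from 0.859 to 0.995). The *C1qb* term was lost without replicate 4 (adjusted p = 0.0696), and the *C1qc* term without replicate 1, 2 or 4 (adjusted p = 0.438, 0.172 and 0.260) and without the filter, through which *C1qc* had passed only where it was high (adjusted p = 0.135).

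Marker genes of other cells moved with these differences. Between the genotypes in Ly6Clo cells, 350 of all 11230 genes were called as higher and 187 as lower with limma, and 552 and 387 in the blocked fit. The 4 Ly6Chi markers summed to 476 to 1686 in wt and 6923 to 9869 in N2ΔMy Ly6Clo libraries, against 50251 to 75860 in Ly6Chi libraries. In N2ΔMy Ly6Clo cells, 3 of these 4 markers were called as higher with limma, and all 4 in the blocked fit. Their part in the differences of *C4b* and the other genes was not tested. Of the 6 Ly6Clo markers, 3 (*Nr4a1*, *Ace* and *Spn*) were called as lower in N2ΔMy Ly6Clo cells with limma, and 5 in the blocked fit. Of the 4 neutrophil markers tested *Mmp8* was called as higher (1.42, adjusted p = 0.0353). Of 10 macrophage markers, 5 were tested and 4 were called as higher in N2ΔMy Ly6Clo cells (*Mertk* 4.41 ± 0.55, *Cd5l* 4.50 ± 0.87, *Mrc1* 3.32 ± 0.49 and *Fcgr1* 1.16 ± 0.18 on the log2 scale). *Mertk* and *Cd5l* passed the filter only through the N2ΔMy Ly6Clo libraries, where they were high. The sum over the macrophage list was 4781 to 6751 in wt and 7914 to 13145 in N2ΔMy Ly6Clo cells. Most of it was *Adgre1* (means 5078 and 7705), the tested marker that was not called. *Mrc1* and *Fcgr1* were higher in wt Ly6Chi cells after Sham (means 608 and 2656) than in N2ΔMy Ly6Clo cells (89.25 and 1983). *Marco*, which was not tested, had means of 19.25 in wt and 15.25 in N2ΔMy Ly6Clo cells. The markers of resident macrophages *Vsig4* and *Clec4f* were at 0 in every library, and *Lyve1* and *Timd4* did not exceed 4. Their part in the differences of the complement genes was not tested either. Of 6 dendritic cell markers, 5 were tested and 0 were called with limma (1 at an unadjusted p under 0.05, and 2 called in the blocked fit), with sums of 86 to 568 in wt and 212 to 1690 in N2ΔMy Ly6Clo cells. T cell markers summed to at most 6 in any library.

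Of 51 other complement genes, 15 had values high enough to be tested and 36 had not, among them all 7 genes of the terminal route. In Ly6Clo cells 0 of the 15 were called between the genotypes with limma (5 at an unadjusted p under 0.05), with a median log2 fold change of 0.11, where 4.78% of all genes were called, whereas the blocked fit called 4, and 939 of all 11230 genes. Those were *Cd93* (1.15 ± 0.36, adjusted p = 0.0949 without and 0.00113 with the block), a receptor once proposed for C1q, *Lair1* (-0.74 ± 0.20, 0.058 and 4.6e-05), an inhibitory receptor for collagens and C1q, *Itgax* (-0.71 ± 0.24, 0.118 and 0.00882), a chain of complement receptor 4, and *Cd46* (-1.28 ± 0.46, 0.143 and 0.0334), a membrane regulator. *Cd93* was higher, and *Lair1*, *Itgax* and *Cd46* were lower, in N2ΔMy than in wt Ly6Clo cells in 4 of 4 same-numbered pairs. In Ly6Chi cells 0 of the 15 were called between the genotypes, with limma and in the blocked fit, after IMQ or Sham treatment (2 at an unadjusted p under 0.05 in each). Of all 11230 genes, limma called 3 there after IMQ and 2 after Sham, and the blocked fit 54 and 3.

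With IMQ, 3 of the 15 other genes were higher and 1 was lower in wt Ly6Chi cells, where 9.49% of all genes were called. The blocked fit called 5 of the 15, and 1331 of all 11230 genes. *Fcnb*, a ficolin of the lectin route, was higher by 2.13 ± 0.30 (adjusted p = 0.00097), *C1rl*, a protease related to C1r, by 1.78 ± 0.16 (adjusted p = 0.00011) and *Lair1* by 1.49 ± 0.23 (adjusted p = 0.00175), while the scavenger receptor *Colec12* was lower (-1.96 ± 0.23, adjusted p = 0.00038). *Fcnb* reached the filter value of 50 only in Ly6Chi libraries after IMQ, so it had to be high there to be counted, in this comparison as in the same one of N2ΔMy cells and in those between the subsets. In N2ΔMy Ly6Chi cells, where 8.7% of all genes were called, 4 were higher, namely *Fcnb* (2.37 ± 0.37), *C1rl* (1.67 ± 0.17), *Lair1* (1.37 ± 0.26) and *Itgam* (0.71 ± 0.08), the alpha chain of complement receptor 3. There too the blocked fit called 5 of the 15, and 1111 of all 11230 genes. Between the subsets, 3 receptor genes were higher in Ly6Clo cells of either genotype after IMQ, where 24.6% of all genes were called in wt and 17.4% in N2ΔMy mice. In wt, *Itgax* was higher by 4.51 ± 0.26, *Lair1* by 2.24 ± 0.25 and *Itgb2*, the shared beta chain of complement receptors 3 and 4, by 1.38 ± 0.14. In wt 6 were lower, with the largest changes in *Fcnb* (-5.90 ± 0.68), *Cd93* (-5.34 ± 0.25), *C1ra* (-4.36 ± 0.70) and *C1rl* (-2.91 ± 0.22), and in N2ΔMy mice 5 were lower. The folds of *Fcnb* (from a mean of 97.5 to 1.5) and *C1ra* (from 36.25 to 1) depend on the 1 added before the log, and *C1ra* likewise reached 50 only in Ly6Chi libraries.

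*C4b* and *Cfb* lie near each other on chromosome 17 (GRCm38, *C4b* at chr17:34728380-34743882 and *Cfb* at chr17:34856374-34862518, both on the minus strand) in the complement segment of the major histocompatibility complex. Of 20 other genes within 50000 bases of that stretch, 6 were tested. *Stk19*, *Dxo*, *Skiv2l*, *Nelfe* and *Ehmt2* were not called in any of the genotype comparison of Ly6Clo cells, the IMQ comparison of wt cells and the subset comparisons, with log2 fold changes between -0.31 and 0.23. *Tnxb*, the tenascin-X gene near *C4b* on the other strand, rose with IMQ in wt Ly6Chi cells from a mean of 1 to 49.5 (5.04, adjusted p = 0.00049) and was lower in wt Ly6Clo cells (-5.04, adjusted p = 0.00022) and, against Ly6Chi cells, in N2ΔMy Ly6Clo cells (-2.55, adjusted p = 0.0022), at values far below those of *C4b* and with a fold that depends on the added 1. It reached the filter value only in Ly6Chi libraries after IMQ, so it too had to be high there to be tested. *C4a*, a near-identical copy of *C4b*, had group means of 6.25 to 16, with the lowest after IMQ in N2ΔMy Ly6Chi cells, where *C4b* was at 999.5. Reads shared by *C4a* and *C4b* could not be assigned to either with certainty from the table.

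**Figure D4:**
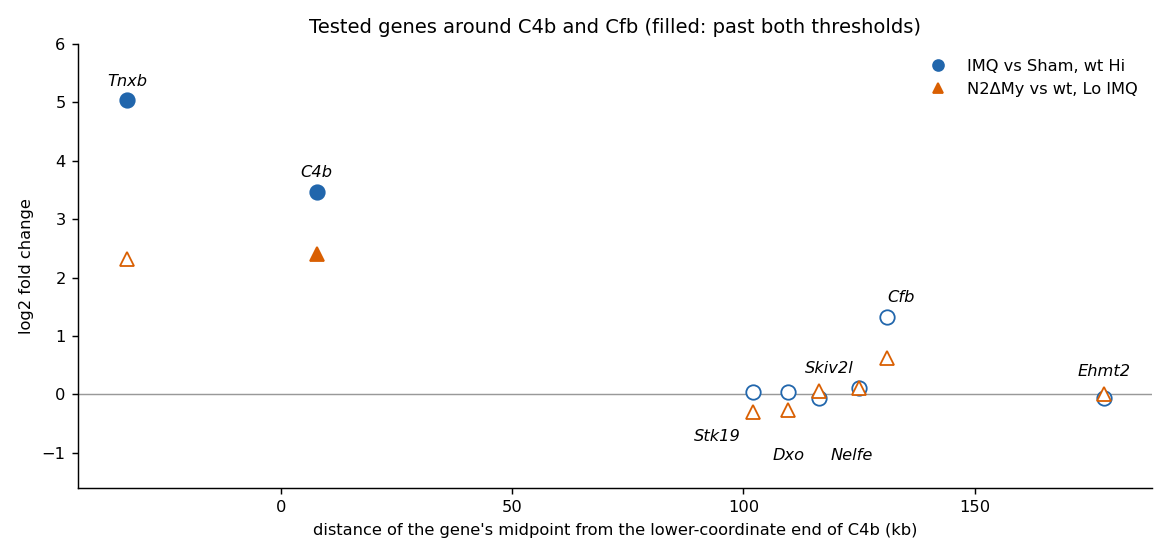
Log2 fold change of the 8 tested genes around C4b and Cfb against the distance (kb) of each gene's midpoint from the end of C4b with the lower coordinate; circles, IMQ against Sham in wt Ly6Chi cells; triangles, N2ΔMy against wt in Ly6Clo cells; filled, past both thresholds. C4b (3.47 and 2.41) and Tnxb (5.04, and 2.32 with an adjusted p of 0.158) stand apart from 5 genes near 0.

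The pattern over all 24 libraries was compared between genes by the correlation of log2 values, as a description, since libraries of a group share their treatment and cells. The C1q chains correlated with each other at r = 0.86 to 0.89 over the 24 libraries, but at 0.20 to 0.23 once the mean of each group was removed. Most of their likeness was thus between groups, and within groups most of the chains' values were near the lower end of detection. The genes most like the mean of the C1q chains were *Slc6a6* (r = 0.930), *C3ar1* (0.916), RP23-185A18.9 (0.914), *Cd5l* (0.911), *Slamf9* (0.899), *Lgmn* (0.896), *Ezr* (0.895), *Ncoa3* (0.894), *Rnf141* (0.892) and *Dok2* (0.891). Of these, *Cd5l*, a secreted macrophage protein, had group means of at most 1 in Ly6Chi cells, 12.75 in wt and 173.8 in N2ΔMy Ly6Clo cells. *Dok2* was at 160 in wt and 1245 in N2ΔMy Ly6Clo cells, and *Slamf9* at 342.2 and 1308, while *Slc6a6*, a taurine transporter, went only from 4934 to 6570.

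The other genes had other nearest neighbours. For *C3* it was *Rab3d* (r = 0.983), with group means of 1224 to 1644 in Ly6Chi and 581 to 680.8 in Ly6Clo cells, and for *C4b* it was *Rai14* (0.958). For *C3ar1* it was *Otud7b* (0.940), for *Cfp* *Slc6a6* (0.948, but not the nearest once the mean of each library series was removed) and for *C5ar1* the lysosomal protease gene *Ctsd* (0.959), which went from a mean of 676.5 in wt Ly6Chi cells after Sham to 1485 after IMQ. For *Cfb* it was *Phb* (0.884), whose likeness fell to r = 0.60 when the mean of each library series was removed.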

How the data were processed

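Sorted monocyte RNA was sequenced from 24 libraries, 4 per group, grouped by their labels. Per the methods and labels, the authors trimmed reads with Trim Galore 0.4.4, aligned them with STAR 2.5.3a to GRCm38.p6 (nf-core/rnaseq, GENCODE M17) and normalized the counts with DESeq2. Libraries used a stranded total RNA kit, and whether counting used strand is not given in the sources used here. The deposited table holds these normalized counts, rounded to whole numbers, as a score per gene and library, so count models were not applied. Its 5 columns of an unnamed comparison by the authors were not used.

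Depth was inferred from which whole numbers occur. A log2 scale with a pseudocount of 1 compresses changes of low genes. Comparisons used limma 3.58.1 (R 4.3.3, lmFit, eBayes with trend) on 2 groups of 4, or 16 libraries for interactions, two-sided, with Benjamini-Hochberg adjustment over 11230 genes, and were tested on simulated data. SDs are over 4 libraries, labelled biological replicates. Levels between genes were divided by the deposited exon length. Promoters are RefSeq windows of GRCm38.p6. Figures used matplotlib 3.10.9.

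Libraries of the same replicate number deviated together in all 7 comparisons (correlation of deviations from the group means at least 0.16 in each pair), by which the numbers were taken to pair the samples. In the IMQ comparisons this likeness (means 0.373 and 0.349) was close to that between different numbers of the same library series (0.364 and 0.362), so there the series and the number cannot be told apart. In the other comparisons different numbers of the same series were also alike (means 0.255 to 0.439), less so than the same number (0.416 to 0.519). A fit with the number as a block is given where it changes a call of the 9 genes, and for only some of the markers and other genes. The 9 genes, the lists and the markers were chosen with earlier results of these data known. Named beside the 9 genes are other complement genes called between the genotypes in Ly6Clo cells, up to 5 with the largest change in each other comparison, the 10 genes most like C1q, the nearest pattern of each other member, and neighbours of the 2 loci. The 4 other complement genes called only with the block and the markers given singly were named after their values were seen. Some listed genes and a motif are not reported here.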

Additional observations from a re-analysis of the deposited data

Results flagged for a closer look

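*C4b* in wt Ly6Clo cells was at 550 in replicate 3, far above the other 3 libraries (144 to 196). Among the 54 sets of 4 libraries checked, 9 genes in 6 groups, 2 held such a library, and chance gives about 1 in 20. *C3ar1* in N2ΔMy Ly6Chi cells after Sham treatment was the other, with replicate 3 at 117 below the other 3 libraries (161 to 168), and the genotypes did not overlap with or without it.

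The genotype difference after IMQ was larger in Ly6Clo than in Ly6Chi cells for *C1qb*, by 3.66 on the log2 scale (adjusted p = 0.00511 by the limma interaction term). For *C1qc* the term was 3.04 (adjusted p = 0.0395), but *C1qc* passed the filter only through the N2ΔMy Ly6Clo libraries. The *C1qc* term was not called without the filter (adjusted p = 0.135), with quantile normalization (0.205), with values under 1.1 set to 1.1 (0.128) or with all 24 libraries in 1 limma fit (0.16). Of 18 interaction terms examined over the 9 genes, these 2 passed the threshold. The values of both in Ly6Chi cells lie near the lower end of what these libraries measure.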

How the results depend on the processing

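The results of the 9 genes were recomputed under 16 alternatives, and those with wt Ly6Clo libraries also without wt Ly6Clo replicate 3, chosen after seeing the data. Other complement genes, markers and neighbours were not followed through most of them. Over 31 single results of the 9 genes, 436 values stayed on their side of the threshold, 47 lost the call, 29 gained it and 0 changed sign; among 802 values of results called neither as reported nor with the block, 51 changed sign, none of them called.
The count of called genes between the genotypes in Ly6Chi cells after IMQ, 1, was 0 without the filter, without the trend and within either library series, and 2 with the replicate block or the series as a covariate. With IMQ in N2ΔMy cells it was 2 instead of 4 without the filter. For Ly6Clo against Ly6Chi cells in wt it was 2 instead of 4 without the filter and within replicates 3 and 4. For the genotype-by-subset term, 2, it was 1 with quantile normalization, without the filter, with values under 1.1 set to 1.1 and within replicates 3 and 4, and 4 with the replicate block or the series as a covariate.
Leaving out 1 replicate number gave 0 in each fit for Ly6Chi cells after IMQ, 2 to 3 for IMQ in N2ΔMy cells, 3 to 4 for the subsets in wt, 0 to 3 for the interaction, and 5 to 7 for the genotypes in Ly6Clo cells (6 with all, and 4 without the filter or within replicates 3 and 4). Beyond the calls given above, the replicate block changed no other call of the 9 genes.
Over all genes, calls between the genotypes in Ly6Clo cells, 537, were 939 with the replicate block, 830 with the series, 215 without the filter, 180 within replicates 3 and 4 and 249 to 355 without replicate 1, 2 or 4. In Ly6Chi cells after IMQ, 3 became 0 to 54, and in Sham mice 2 became 1 to 7. For the interaction, 116 became 18 to 271. For IMQ in wt, 1066 fell to 681 without replicate 2 and 592 within replicates 3 and 4, and in N2ΔMy mice 977 fell to 611 without replicate 4. The 1 gene called for genotype by treatment without the filter was not called otherwise. The causes were not tested. Low values limit what can be said of C1q outside N2ΔMy Ly6Clo cells and of *Cfb*, whose values were lower in the more deeply sequenced series.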
